A study of Mus musculus with 6 samples.

Results

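The Kcnq1 cluster is an imprinted domain on distal mouse chromosome 7, described here in embryonic stem cells that lack both Gsk-3 genes and in wild-type cells. Its members were the 10 genes Cdkn1c, Phlda2, Slc22a18, Kcnq1, Kcnq1ot1, Ascl2, Cd81, Nap1l4, Tssc4 and Osbpl5, chosen by their place in or beside the domain. Every probe set that the platform annotation gives to exactly 1 of these genes was taken, which made 18 of the 45101 probe sets on the array. Kcnq1ot1 had 6 probe sets, Ascl2 had 3, Slc22a18 had 2 and the other members had 1 each.

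The study compared Gsk-3a-/-; Gsk-3b-/- cells (DKO below) with wild-type cells of the line labelled E14K, with 3 arrays per genotype. Gsk-3 is a kinase that restrains beta-catenin in the Wnt pathway and is itself held in check by PI3K signalling, and the series title asks how PI3K signalling through Gsk-3 bears on DNA methylation of imprinted loci. Both genotypes were cultured feeder-free on gelatin, with 15% serum and leukaemia inhibitory factor at 1000 units/ml, and 25 ng of RNA were amplified per array. The labels do not say whether the DKO cells are a single clone or whether replicates were separate cultures, so p-values reflect sample-to-sample spread that may be technical only. Differences between the lines cannot be told apart from the loss of Gsk-3.

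Imprinted genes are expressed mainly from the allele of a single parent. In this domain a control region inside Kcnq1 carries DNA methylation on the maternal allele and is free of it on the paternal allele, where it serves as the promoter of the long noncoding RNA Kcnq1ot1. Transcription of Kcnq1ot1 silences neighbouring genes in cis on the paternal chromosome, so that Cdkn1c, Phlda2, Slc22a18 and Kcnq1 are expressed from the maternal allele in the embryo and the placenta. The outer members Ascl2, Cd81, Tssc4, Nap1l4 and Osbpl5 are known for parental bias mainly in the placenta. These arrays do not separate the alleles and do not measure methylation.

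The sequences before the starts of Kcnq1ot1 and Phlda2 are shown because the first belongs to the control region and the second to the brightest member that fell. Each is the 250 bases before the RefSeq start in build GRCm38.p6, read 5′ to 3′ on the gene's minus strand, at chr7:143296548-143296797 for Kcnq1ot1 and chr7:143502525-143502774 for Phlda2. Capitals mark CCAAT, the letters bound by NF-Y, wherever they occur on either strand.
Kcnq1ot1: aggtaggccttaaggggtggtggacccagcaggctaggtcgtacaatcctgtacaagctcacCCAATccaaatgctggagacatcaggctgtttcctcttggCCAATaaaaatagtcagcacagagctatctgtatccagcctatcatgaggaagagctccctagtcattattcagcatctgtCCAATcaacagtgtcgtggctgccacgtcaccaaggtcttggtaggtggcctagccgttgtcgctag
Phlda2: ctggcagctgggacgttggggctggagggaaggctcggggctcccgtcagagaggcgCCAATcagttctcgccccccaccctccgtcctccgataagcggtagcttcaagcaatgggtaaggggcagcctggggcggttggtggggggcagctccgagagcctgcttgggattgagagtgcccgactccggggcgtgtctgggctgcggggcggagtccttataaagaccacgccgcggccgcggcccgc

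The Kcnq1ot1 window held 3 CCAAT matches and the Phlda2 window held 1. Of 32851 promoter windows of the same length, 33.9% held at least 1 such match and 2.79% held at least 3. The window of Ascl2 also held 3, those of Tssc4 and Osbpl5 (1 of its 3 windows) held 1, and those of Cd81 and Slc22a18 held 0. The windows also differed in CpG dinucleotides, the sites of DNA methylation: Phlda2 had 21, Ascl2 had 19, Tssc4 had 17, Cd81 had 16, Kcnq1ot1 had 5 and Slc22a18 had 0, against a median of 6 over all windows. The 3 windows of Osbpl5 had 14, 1 and 18. Searched on both strands, the Tcf/Lef letters CTTTGAT or CTTTGAA were found in 0 of the 9 windows of 7 members (7.48% of all windows), and TGCCGC, the letters read by Zfp57 at imprinted control regions, in 1 window of Osbpl5 (8.68% of all windows). A match is only a match of letters, and these motifs do not overlap each other. Each window ends at a RefSeq start, and sequence past the starts was not searched. The counts for Kcnq1ot1 therefore do not describe the control region as a whole, for CpG or for any motif.

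Facts of the whole series bear on the results in a few places. Replicate 3 stood apart in both genotypes, since 9 spike-in control probe sets averaged log2 values of 10.2 in DKO and 10.5 in wild-type there and 1.64 to 1.85 on the other 4 arrays. For 3 control transcripts, the log2 ratio of 3′ over 5′ signal, which reflects RNA length, was 2.32, 2.44 and 1.83 on DKO arrays 1 to 3, against 2.30, 2.00 and 1.64 on wild-type arrays 1 to 3. The Gsk3a probe set read lower on every DKO array than on any wild-type array, with a log2 difference of -1.38 that did not pass (adjusted p = 0.0942), and 0 of 5 tested Gsk3b probe sets passed by limma (the smallest unadjusted p was 0.0933), so these probe sets do not settle the check of the labels. All 8 embryonic stem cell markers were tested and by limma 0 passed (0 also at an unadjusted p under 0.05 and without moderation); their summed intensity was 23508 to 26036 in DKO and 23709 to 25720 in wild-type. The largest difference among them was that of Esrrb (0.46, adjusted p = 0.532).

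Of the 10 members, 6 had a probe set bright enough to test: Phlda2, Cdkn1c, Kcnq1ot1, Cd81, Nap1l4 and Tssc4. A probe set was tested if its intensity was at least 16 on at least 3 of the 6 arrays, and it passed if its limma p, adjusted over all 20841 tested probe sets, was at most 0.05. In the main fit, which left out the replicate number, Phlda2 and Cdkn1c fell, and the other 4 did not pass. Kcnq1ot1 passed only in an alternative fit with that number as a block, described below. Counted by probe set in the main fit, 2 of the 8 tested in the cluster passed, where 3.24% of all tested probe sets did. Over all genes read on their brightest probe set, 4.13% passed in either direction, 2.5% as lower and 1.64% as higher in DKO. Cdkn1c came into the test only through its wild-type arrays, so a difference in that direction was built into its entry, and the counts of 2 of 6 and 2 of 8 are not read against the background.

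**Figure D1:**
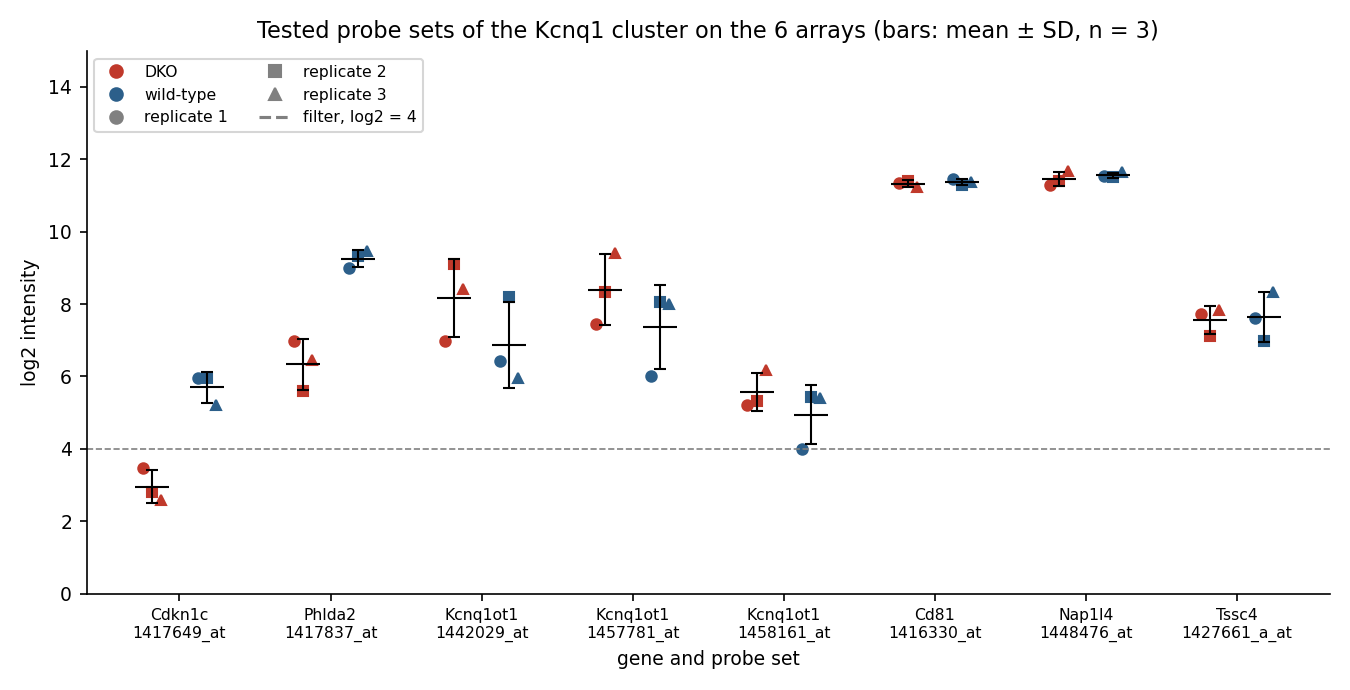
Log2 intensity (vertical axis) of the 8 tested probe sets of the cluster (horizontal axis), with DKO arrays in red left of wild-type arrays in blue, a marker shape per replicate number, and black bars for mean ± SD. The genotypes do not overlap for Cdkn1c and Phlda2 and overlap for the other probe sets.

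Phlda2 encodes a small pleckstrin homology-like protein that restrains growth of the placenta. Its log2 intensity was 6.97, 5.59 and 6.44 on the DKO arrays, against 8.99, 9.32 and 9.46 on the wild-type arrays. Every DKO array lay more than 2 log2 units below its same-numbered wild-type array, with pair differences of -2.02, -3.73 and -3.02, and the genotypes did not overlap. The means were 6.33 ± 0.70 in DKO and 9.26 ± 0.25 in wild-type (SD, n = 3), a log2 difference of -2.93 (SE 0.36, 95% interval -3.73 to -2.12, adjusted p = 0.00256), or 7.60-fold lower in DKO. Among all tested probe sets 0.441% had a larger absolute difference. The fall passed whichever array was omitted (6 fits, highest adjusted p = 0.0161) and within replicates 1 and 2 alone (-2.88, adjusted p = 0.0195), and was -3.02 in replicate 3. In bulk RNA, fewer cells that express a gene and less of its RNA per cell cannot be told apart.

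Cdkn1c encodes p57Kip2, an inhibitor of cyclin-dependent kinases that halts the cell cycle. Its intensity was 11, 7 and 6 on the DKO arrays, against 62, 62 and 37 on the wild-type arrays. All DKO arrays lay under the filter of 16 and all wild-type arrays above it, so only a limit can be given: Cdkn1c was at least 3.26-fold lower in DKO, with the dim arrays set to the filter. Measured as deposited, the log2 means were 2.95 ± 0.45 in DKO and 5.71 ± 0.43 in wild-type (SD, n = 3; adjusted p = 0.00211), and the groups did not overlap. The fitted log2 difference was -2.76, and -1.52 with a pseudocount of 16, so neither is taken as its size. The call held whichever array was omitted (6 fits, highest adjusted p = 0.0181). These fits kept the filter set on all 6 arrays, which Cdkn1c met only through its wild-type arrays, so they are no separate support.

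The calls of both genes needed the shared estimate of variance. Without moderation of the variances, Phlda2 had an adjusted p of 0.131 and Cdkn1c of 0.118, in a fit that passed 31 probe sets in all. With no filter on dim probe sets, Phlda2 had an adjusted p of 0.0653 and Cdkn1c of 0.0494.

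**Figure D2:**
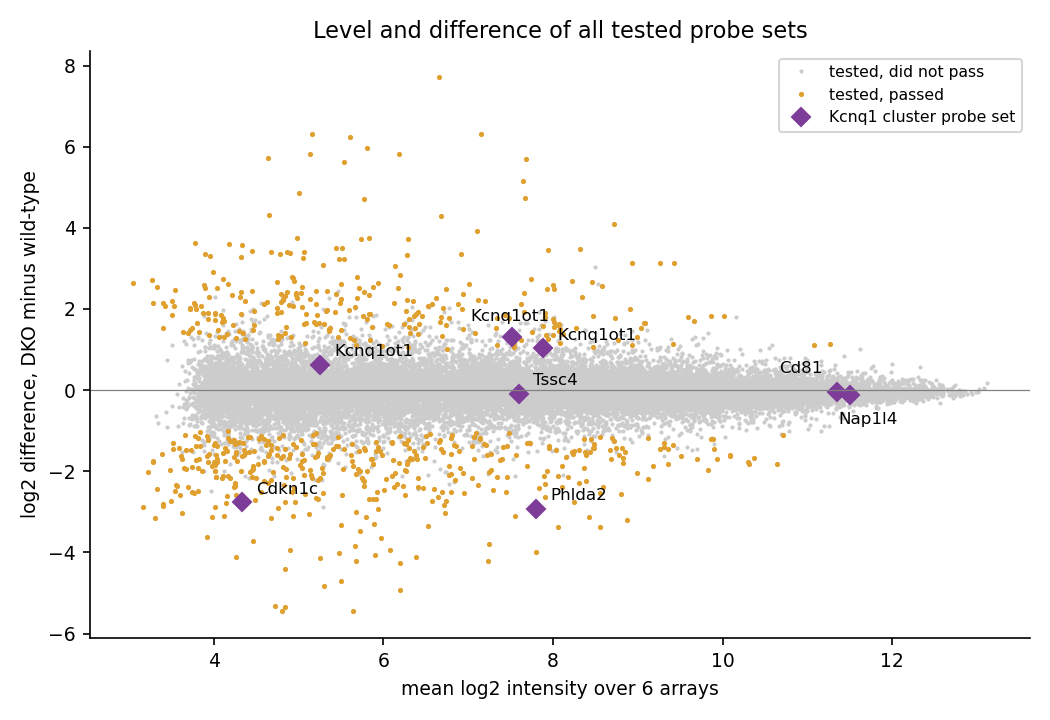
Log2 difference between DKO and wild-type (vertical axis) against mean log2 intensity over the 6 arrays (horizontal axis) for all 20841 tested probe sets, with those that passed in orange and the 8 of the cluster as purple diamonds. Phlda2 (-2.93) and Cdkn1c lie among the probe sets that passed, the fitted position of Cdkn1c resting on DKO arrays under the filter, and Cd81 and Nap1l4 lie near 0.

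Kcnq1ot1, the noncoding RNA that silences the domain in cis, had 3 tested probe sets, and all of them averaged higher in DKO without passing. On its brightest probe set, 1457781_at, the log2 intensity was 7.44, 8.34 and 9.42 on the DKO arrays, against 6.02, 8.06 and 8.01 on the wild-type arrays. The genotypes overlapped, and each DKO array lay above its same-numbered wild-type array, by 1.42, 0.28 and 1.42 log2 units. The difference was 1.04 (SE 0.63, 95% interval -0.38 to 2.46, adjusted p = 0.59).

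The probe set 1442029_at read 6.98, 9.10 and 8.41 on the DKO arrays, against 6.43, 8.20 and 5.95 on the wild-type arrays. It was also higher in DKO in each same-numbered pair, by 0.55, 0.89 and 2.46, with a difference of 1.30 (SE 0.66, adjusted p = 0.471). The arrays were not ordered alike on both probe sets: DKO replicate 2 was the highest on this probe set and DKO replicate 3 on the brightest. The dimmer 1458161_at read 5.21, 5.32 and 6.17 in DKO, against 4.0, 5.43 and 5.39 in wild-type, and differed by 0.63 (adjusted p = 0.661), with replicate 2 slightly lower in DKO (-0.10).

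The spread between replicate numbers was large for this RNA, and the block on that number changed its call. With the block, the difference passed for 1457781_at (1.04, 95% interval 0.45 to 1.63, adjusted p = 0.0375) and for 1442029_at (1.30, 95% interval 0.55 to 2.05, adjusted p = 0.039), and did not pass for 1458161_at (adjusted p = 0.202). In that fit 9.57% of all tested probe sets passed in either direction, and 4.31% passed as higher in DKO. With replicate 3 as a batch the adjusted p-values of 1457781_at, 1442029_at and 1458161_at were 0.318, 0.352 and 0.417. Single arrays moved these differences. That of 1457781_at was 0.37 without wild-type replicate 1, the smallest value with any array omitted, and that of 1442029_at ran from 0.83 without DKO replicate 2 to 1.97 without wild-type replicate 2, and was 0.72 in replicates 1 and 2 alone. That of 1458161_at ran from 0.16 without wild-type replicate 1 to 0.87 without wild-type replicate 2. The 3′ over 5′ signal of the control transcripts was also higher in DKO in each same-numbered pair, and its part in the Kcnq1ot1 values was not tested.

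The remaining 3 Kcnq1ot1 probe sets, 1441588_at, 1459443_at and 1446255_at, had intensities of 3 to 6 on the DKO arrays and 3 to 8 on the wild-type arrays and could not be tested. No level of Kcnq1ot1 is given across its probe sets. Kcnq1ot1 lies antisense within Kcnq1, and the orientation of its probes was not examined here.

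**Figure D3:**
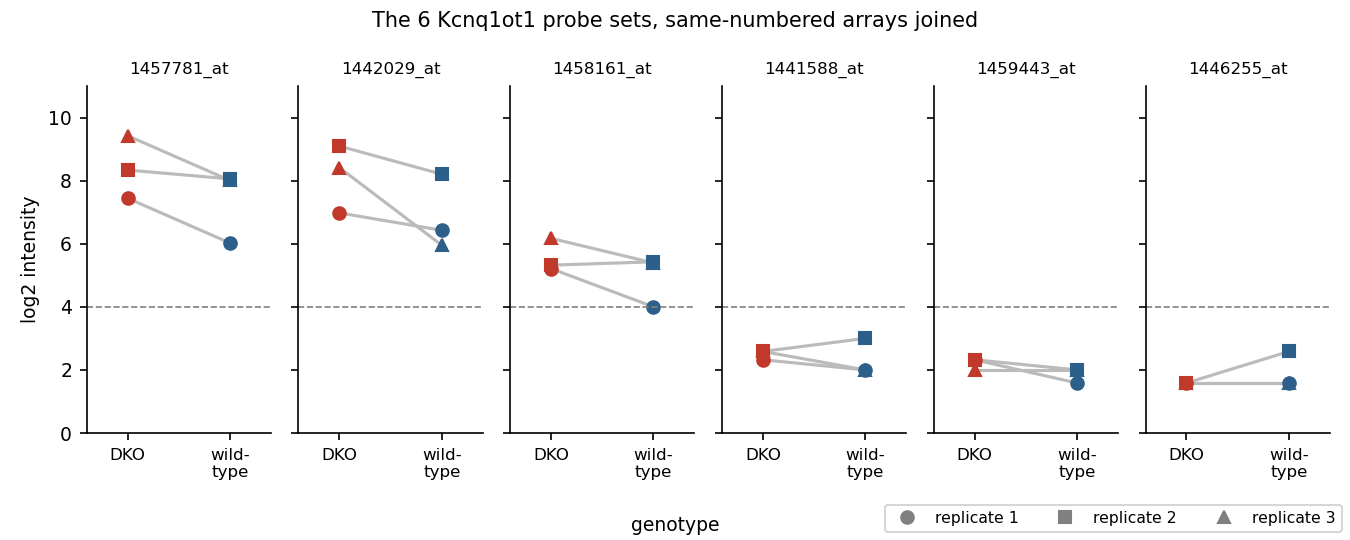
Log2 intensity (vertical axis) of the 6 Kcnq1ot1 probe sets, with DKO left of wild-type in each panel, grey lines joining same-numbered arrays and a dashed line at the filter of 4. Lines of the brightest pair of probe sets all run lower towards wild-type, and the 3 panels on the right lie under the filter.

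Kcnq1 and Slc22a18, the other members silenced by Kcnq1ot1 in embryo and placenta, gave no signal above the filter. Kcnq1, a voltage-gated potassium channel of heart and epithelia, read 4, 4 and 4 in DKO, against 5, 5 and 4 in wild-type. Slc22a18, a membrane transporter of the organic cation family, read 8, 7 and 6 in DKO against 10, 8 and 8 in wild-type on 1417809_at, and 8, 8 and 6 in DKO against 7, 7 and 6 in wild-type on 1427531_a_at. Steps of 1 intensity unit are coarse at this level, and no fold is given for either gene.

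The outer members that could be tested differed little in mean. Cd81, a tetraspanin of the cell surface, read 11.35, 11.41 and 11.23 on the DKO arrays, against 11.45, 11.29 and 11.38 on the wild-type arrays, a log2 difference of -0.05 (95% interval -0.54 to 0.45, adjusted p = 0.973). Nap1l4, a histone chaperone and the next member after Phlda2 in gene order, read 11.29, 11.40 and 11.68 on the DKO arrays, against 11.54, 11.51 and 11.64 on the wild-type arrays. Its difference was -0.11 (95% interval -0.62 to 0.41, adjusted p = 0.924). These intervals leave out changes of the size fitted for Phlda2.

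Tssc4 was more variable, at 7.71, 7.11 and 7.84 in DKO, against 7.61, 6.97 and 8.34 in wild-type. Replicate 2 was the lowest in both genotypes, and the difference was -0.09 (95% interval -0.93 to 0.76, adjusted p = 0.969). For Cd81, Nap1l4 and Tssc4 the genotypes overlapped, and the block on the replicate number changed none of these calls (adjusted p = 0.934, 0.821 and 0.878).

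Ascl2 and Osbpl5 were too dim to test. Ascl2 encodes a basic helix-loop-helix factor needed for the spongiotrophoblast of the placenta, and its brightest probe set, 1432018_at, missed the filter by 1 array. It read 11, 13 and 15 in DKO, against 40, 14 and 25 in wild-type. The genotypes overlapped, since wild-type replicate 2 read below DKO replicate 3, and with no filter on dim probe sets the log2 difference was -0.90 (adjusted p = 0.518). The other Ascl2 probe sets read 2 to 8 in DKO and 2 to 9 in wild-type. Osbpl5, a lipid-transfer protein of the oxysterol-binding family, read 6, 6 and 7 in DKO, against 11, 8 and 8 in wild-type. Its genotypes did not overlap, but all values lay under the filter, and with no filter its log2 difference of -0.49 did not pass (adjusted p = 0.39). Of the 8 tested probe sets of the cluster, 2 had genotypes that did not overlap, where 16.7% of all tested probe sets did not. Since 1 of the 2 was Cdkn1c, tested only through its wild-type arrays, this count is not read against that share.

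Genes of the same stretch of chromosome 7 that are not members give the setting of these values. RefSeq places 37 genes from H19 to Osbpl5, and 12 non-members among them had a single-gene probe set. Of these, 9 were under the filter on every array: Igf2os, Ins2, Th, Tspan32, R74862, Trpm5, 4933417O13Rik, Tnfrsf23 and E230032D23Rik. The other 3 were tested, and 1 of them passed, where 4.13% of all genes did. Igf2, a fetal growth factor under a control region of its own beside the cluster, read 6.69, 5.59 and 5.61 in DKO, against 8.92, 7.38 and 8.06 in wild-type (difference -2.16, adjusted p = 0.0324), but among the 6 fits with an array omitted it passed only in that without wild-type replicate 2 (highest adjusted p = 0.137). Its limma adjusted p was 0.000292 with the block on replicate number and 0.0224 with replicate 3 as a batch. The other Igf2 probe set, 1415931_at, read 2, 3 and 2 in DKO, against 3, 3 and 3 in wild-type, under the filter.

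Between Nap1l4 and Osbpl5, the tested genes averaged higher in DKO without passing. Cars, the cysteinyl-tRNA synthetase gene, read 7.67, 7.17 and 7.93 in DKO, against 6.43, 6.95 and 7.11 in wild-type. Its genotypes did not overlap, and its difference was 0.76 (SE 0.29, adjusted p = 0.292). Tnfrsf22, a decoy receptor of the TNF receptor family, read 6.55, 6.49 and 5.67 in DKO, against 6.25, 5.36 and 5.49 in wild-type, a difference of 0.54 (adjusted p = 0.616). Its dimmer tested probe set, 1426095_a_at, differed by 0.06 (limma adjusted p = 0.974), with pair differences of -0.82, 0.78 and 0.23.

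**Figure D4:**
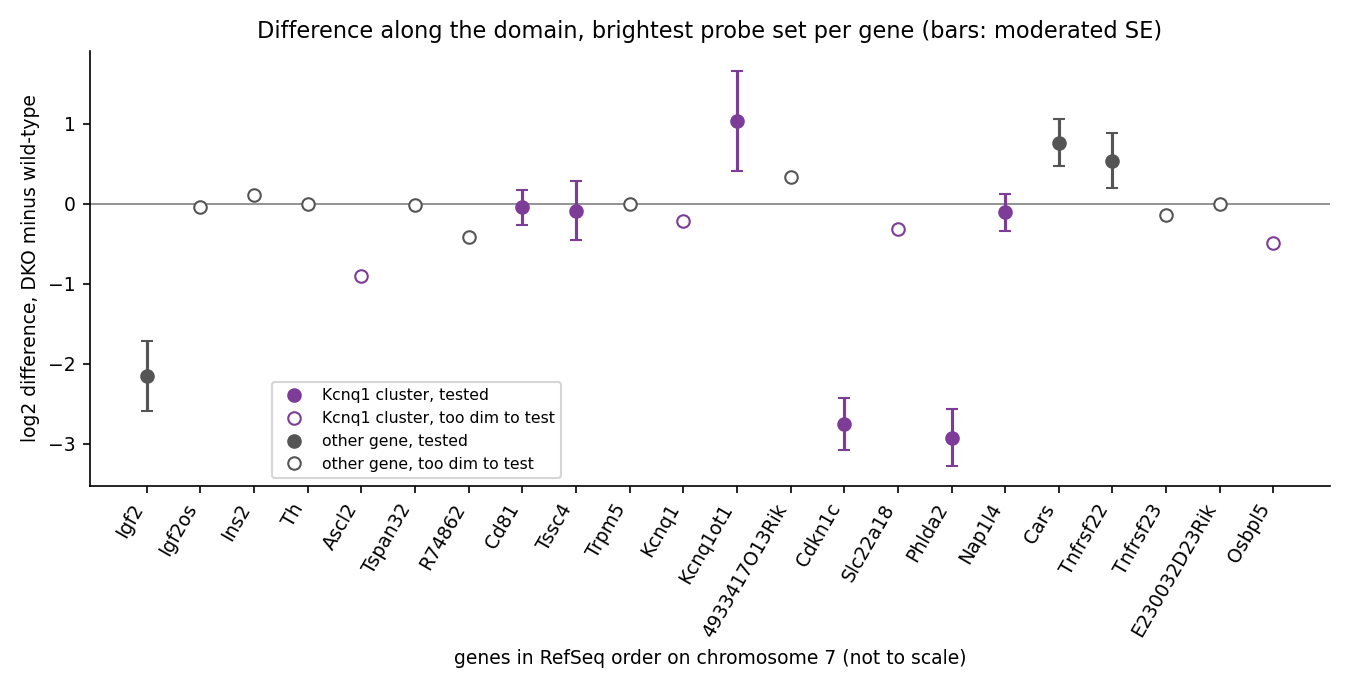
Log2 difference between DKO and wild-type (vertical axis) of the 22 genes from Igf2 to Osbpl5 with a probe set, in gene order and not to scale, with members in purple, other genes in grey, open circles for genes too dim to test and bars for the moderated SE. Cdkn1c, with DKO arrays under the filter, and Phlda2 stand lowest on either side of the dim Slc22a18, and Nap1l4, next to Phlda2, stands near 0.

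A wider list of 28 genes around the domain, 14 of them tested, held 2 that fell and 12 that did not pass. The median difference was 0.09, beside -0.0025 over all 10496 genes read in this way, of which 4.13% passed in either direction. The second that fell was Fgf15, a growth factor of the early embryo, which read 3.17, 2.81 and 3.17 in DKO, against 5.61, 5.09 and 4.81 in wild-type. It was at least 2.25-fold lower in DKO (adjusted p = 0.00374) and, like Cdkn1c, was tested only through its wild-type arrays. The count of 2 of 14 is therefore not read against the share over all genes.

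Factors known to act on the silent allele of this domain or on imprinted control regions mostly did not pass. Of 20 such genes, all tested, 1 fell, 0 rose and 19 did not pass, with a median of -0.08. Over all genes, 4.13% passed in either direction. The 19 differed by -0.42 (Kmt5b, a histone H4 methyltransferase) to 0.43 (Setdb1, a histone H3 methyltransferase); among them were the Polycomb genes Ezh2, Eed, Suz12 and Rnf2, the H3 methyltransferase gene Ehmt2 and the imprint-keeping gene Zfp57. The gene that fell was Dnmt3a, a de novo DNA methyltransferase, at 9.65, 9.71 and 9.24 in DKO, against 11.18, 11.61 and 10.81 in wild-type (difference -1.67, adjusted p = 0.0142), and 2 of its 5 tested probe sets passed. That call was lost when DKO replicate 1 or wild-type replicate 2 was omitted (highest adjusted p = 0.0709). The limma adjusted p of Dnmt3a was 0.000923 with the block on replicate number and 0.00308 with replicate 3 as a batch.

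A list of cell-cycle genes, made up of cyclins, cyclin-dependent kinases, other inhibitors of these kinases and Pcna, numbered 13, all tested. Of these 1 rose, 0 fell and 12 did not pass (median 0.10), where 4.13% of all genes passed in either direction. Cdk6, a G1 kinase, rose, at 8.19, 9.09 and 9.29 in DKO, against 6.23, 7.10 and 7.56 in wild-type (difference 1.89, adjusted p = 0.0415). Among the 6 fits with an array omitted it passed only in that without wild-type replicate 3 (highest adjusted p = 0.157), and 1 of its 2 tested probe sets passed. The limma adjusted p of Cdk6 was 0.000425 with the block on replicate number and 0.0108 with replicate 3 as a batch. The other Cip/Kip inhibitors, named here after their values were seen, did not pass in the main fit. Cdkn1b (p27Kip1) differed by -1.16 (adjusted p = 0.118), and passed with the block on replicate number (0.00794), with replicate 3 as a batch (0.0176) and without DKO replicate 3. Cdkn1a (p21Cip1) differed by 0.61 (adjusted p = 0.367, 0.176 with the block and 0.251 with the batch).

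Several members are best known from trophoblast, so markers of that and other cell types were read beside them. Of 10 trophoblast markers, 8 had a probe set and 2 were tested. Cdx2, a homeobox gene of trophoblast and of the posterior embryo, rose, with intensities of 1307, 2073 and 1920 in DKO, against 99, 104 and 103 in wild-type (log2 difference 4.09, adjusted p = 9.71e-05). Eomes, a T-box gene, did not pass (1.24, adjusted p = 0.0787; 0.00734 with the block and 0.0446 with replicate 3 as a batch). The summed intensity of the 8 markers was 1577 to 2290 in DKO and 209 to 291 in wild-type, and Cdx2 made up most of it in DKO. Among the markers too dim to test, Gata3 read 8, 6 and 6 in DKO, against 16, 10 and 12 in wild-type, Krt7 read 9, 5 and 8 in DKO, against 20, 7 and 17 in wild-type, and Plac1 read 3, 3 and 4 in DKO, against 8, 6 and 5 in wild-type. Elf5, Hand1 and Tpbpa, like Plac1, were under the filter on every array.

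By limma 0 of 5 tested endoderm markers passed (1 at an unadjusted p under 0.05, 0 without moderation), with a median difference of 0.95. Their directions were mixed: Sox17 differed by 1.19, Gata6 by 1.05 and Gata4 by 0.95, and Sox7 by -0.35 and Dab2 by -1.45 (adjusted p = 0.305; past the threshold without wild-type replicate 3), and the sum of the 7 markers was 1924 to 3569 in DKO and 911 to 3308 in wild-type. By limma 0 of 4 tested fibroblast markers passed (1 at an unadjusted p under 0.05, 0 without moderation), with a median of 0.19. Col1a1 differed by -1.34 (adjusted p = 0.0805; 0.00506 with the block), Twist1 by -0.06, Col1a2 by 0.75 and Thy1 by 0.44. The sum of the 8 fibroblast markers was 411 to 492 in DKO and 492 to 633 in wild-type, and Col3a1, Lum and Postn were under the filter. By limma 0 of 2 tested blood markers passed (0 at an unadjusted p under 0.05 and without moderation; Gata1, 0.14, adjusted p = 0.943; sum of 5 markers 90 to 111 in DKO and 83 to 105 in wild-type), and Ptprc, Hbb-bh1 and Spi1 were under the filter. The part of these cell types in the falls of Phlda2 and Cdkn1c was not tested.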

How the data were processed

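Total RNA of 6 samples was measured on Affymetrix mouse expression arrays. The deposited intensity values are whole numbers, 1 per probe set and array, on a scale the sources used here do not state. Being whole and reaching 12861, they were read as linear and converted to log2 with no pseudocount. The authors' tools, per the submitters' processing notes, were GCOS, limma 2.16.5, GCRMA 2.14.1 and R 2.8.0, with no role given for any of them. A genome build is not named in the sources. No scanner files or detection flags were used.

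Names came from the array's annotation, updated by gene identifier with the RefSeq gene table of GRCm38.p6, which served for names and gene order. Of 45101 probe sets, 34958 had 1 gene, and 34754 of these matched the table. Tested were probe sets other than the 64 array controls that reached a log2 value of 4 (an intensity of 16) on 3 or more of the 6 arrays. The genotypes were compared two-sided with lmFit and eBayes (limma 3.58.1, R 4.3.3), with Benjamini-Hochberg adjustment over 20841 tested probe sets and a threshold of 0.05. A gene was read on the brightest of its tested probe sets, by the mean of the 6 arrays. The procedure was tested on simulated data with independent errors on every array. That test does not cover effects shared by replicate number or the coarse values near the filter.

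The named genes are the 10 members and both Gsk-3 genes, every gene between H19 and Osbpl5 with a probe set, and the 3 largest passing differences of each list at most, or its largest difference where none passed. Other list members in the text were named after their values were seen. The members, the lists and the tests were chosen with earlier results of these data known. The promoter sequences are those of RefSeq, build GRCm38.p6.

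The titles number the samples 1 to 3 in each genotype. Over tested probe sets, arrays with the same number deviated together from the genotype means, with correlations of 0.427, 0.354 and 0.595. Arrays of unlike number ran from -0.488 to 0.113. Deviations from a genotype mean cancel out within the genotype, so high values for like numbers force lower ones for unlike numbers. The numbers were taken to pair the samples, which the labels do not state. The main model left the replicate number out, and an alternative held it as a block. Other alternatives changed the filter, the pseudocount, the scaling, the variance model, the batch and the arrays used.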

Additional observations from a re-analysis of the deposited data

How the results depend on the processing

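The 6 fits with an array omitted kept the filter set on all 6 arrays. They left the cluster at 2 passing probe sets and 2 passing genes. They passed 290 to 604 of all tested probe sets (290 without DKO replicate 1, 381 without DKO replicate 2, 319 without wild-type replicate 2; 675 with all arrays) and 2 to 6 of the genes of the other lists (6 with all arrays: Igf2, Fgf15, Dnmt3a, Cdk6, Osbpl10 and Cdx2). In them the difference was -3.24 to -2.55 for Phlda2, -3.01 to -2.57 as fitted for Cdkn1c, whose DKO arrays are under the filter, 0.37 to 1.52 for the brightest Kcnq1ot1 probe set, -0.087 to 0.0041 for Cd81 and -0.42 to 0.26 for Tssc4. The replicate block passed 1995 probe sets, 4 of the cluster (3 of its genes, Kcnq1ot1 added, at 1.04 and 1.30) and 11 list genes; replicate 3 as a batch passed 1117 and replicates 1 and 2 alone 440, each with 2 of the cluster. A filter at a log2 value of 6 passed 373 and 1 of the cluster, since Cdkn1c was then not tested. No filter passed 495 probe sets of 45037, with 1 probe set and 1 gene of the cluster (Phlda2 at -2.93 did not pass) and 2 list genes. Without moderation 31 probe sets, 0 of the cluster (Phlda2 at -2.93, Cdkn1c at -2.76) and 1 list gene passed (2 of the cluster at an unadjusted p under 0.05, as by limma). Cd81 turned sign in replicates 1 and 2 alone (0.0053) and with array weights (0.0052), as did Tssc4 in replicates 1 and 2 alone (0.12), neither near passing; the causes were not tested. The pseudocount moved Cdkn1c to -1.52. It, both rescalings and the intensity trend changed no call of the cluster. The number of arrays and the coarse whole-number values under 16 limit what can be said of Slc22a18, Kcnq1, Ascl2 and Osbpl5.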

Other observations

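A list of 31 genes, 20 of them tested, held relatives of the members in the same protein families. It also held Kcne1, Kcne2 and Kcne3, which are not of the Kcnq family. Kcne3, named after its values were seen, read 45, 10 and 83 in DKO, against 5, 4 and 5 in wild-type, and was too dim to test. Of the 20 tested genes 1 rose, 0 fell and 19 did not pass, where 4.13% of all genes passed in either direction. The median log2 difference was 0.21, beside -0.0025 over all genes. In the fit with the block on replicate number, 3 rose: Osbpl10, Nap1l5 and Osbpl9, the last named after its values were seen (0.84, adjusted p = 0.166; 0.0375 with the block). The gene that rose was Osbpl10, an oxysterol-binding protein relative of Osbpl5, which read 7.15, 7.12 and 6.07 in DKO, against 5.21, 5.04 and 4.46 in wild-type (difference 1.87, SE 0.35, adjusted p = 0.0231 by limma). The genotypes did not overlap and both tested probe sets passed, but the brighter one lost its call when an array other than DKO replicate 3 and wild-type replicate 1 was omitted (adjusted p of up to 0.14). On that brighter probe set the limma adjusted p was 0.000507 with the block on replicate number and 0.00153 with replicate 3 as a batch.

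The relatives of Phlda2, named here after their values were seen, averaged higher in DKO and did not pass: Phlda1 by 0.41 (adjusted p = 0.828) and Phlda3, a target of p53, by 0.58 (adjusted p = 0.659). Among relatives of Nap1l4, also named afterwards, Nap1l1 differed by -0.16 (adjusted p = 0.887), and Nap1l5, itself an imprinted gene on another chromosome, by 1.19 (adjusted p = 0.118; 0.0344 with the block on replicate number).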
